A study of Mus musculus with 6 samples.

Results

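The integrin subunits that form receptors for collagens and laminins were followed in immortalized murine embryonic fibroblasts (MEF) that lack one of the RNA-binding proteins TIA1 and TIAR. The 8 genes were chosen by symbol, Itga1, Itga2, Itga3, Itga6, Itga7, Itga10, Itga11 and Itgb4, and all 8 had a probe on the array, among 34797 gene names in all. They were measured by 11 of 55681 probes, each printed on 1 spot, and no reading of these spots was saturated or marked as an outlier.

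The study set wild type (WT) MEF beside TIA1 knock-out (KO) and TIAR KO MEF, on 6 one-dye arrays, 2 for each line. The labels give a different background to each group, W4 for WT, BALB/c for TIA1 KO and C57BL/6 for TIAR KO cells, so that genotype cannot be told apart from background or cell line. One slide and 1 scan held all 6 arrays, and the TIA1 KO arrays occupied another row of the slide than the rest, which cannot be told apart from the genotype. Clone and passage are not given in the sources used here. The study describes the 2 arrays of a group as independent biological samples, without saying whether these were cultures of one line or separate lines, and the p-values measure the spread between them.

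Integrins are cell-surface receptors made of 1 alpha and 1 beta subunit, which bind the extracellular matrix outside the cell and the actin or keratin cytoskeleton inside it. The alpha subunits encoded by Itga1, Itga2, Itga10 and Itga11 bind collagens and pair with the beta subunit of Itgb1. Those of Itga3, Itga6 and Itga7 bind laminins, the network proteins of basement membranes, and also pair with the Itgb1 product. The subunit of Itgb4 pairs with that of Itga6 and anchors epithelial cells through hemidesmosomes. In fibroblasts, Itga1, Itga2 and Itga11 are known as receptors for fibrillar and basement membrane collagens, whereas Itga10 is known from cartilage and Itga7 from muscle.

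The probes on which the results rest are shown as the files give them, 5′ to 3′, so that the part of each transcript that was read can be seen. Positions are those of mm9. Both Itga1 probes span far more of the genome than their 60 bases, chr13:115756765-115758419 for the brighter one and chr13:115821387-115825525 for the second, both on the minus strand, so each crosses at least 1 exon junction. The Itga2 probe (chr13:115626714-115626773, minus strand) is shown because it reads the cytoplasmic end of the subunit. Its capitals mark the 15 bases, from position 4 to 18 of the probe, that encode the membrane-proximal motif shared by integrin alpha subunits.
Itga1, brighter probe: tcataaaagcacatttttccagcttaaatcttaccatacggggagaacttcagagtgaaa
Itga1, second probe: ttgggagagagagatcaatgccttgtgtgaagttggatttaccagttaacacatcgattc
Itga2: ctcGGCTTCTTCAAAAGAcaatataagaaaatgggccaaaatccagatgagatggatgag

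For the other genes 30 bases of each probe are shown. The 2 Itga6 probes are given because they moved apart in TIAR KO cells. The brighter one targets a RefSeq mRNA (chr2:71694756-71694815, plus strand), and the second, which ends 4064 bases upstream, was designed on another Ensembl transcript (ENSMUST00000139760; chr2:71690633-71690692, plus strand).
Itga6, brighter probe, first 30 bases: gagaatgagaacctgggaggtcttgttgtt
Itga6, second probe, first 30 bases: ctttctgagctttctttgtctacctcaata
Itga11, first 30 bases (chr9:62631667-62631726, plus strand): gtttcatctgaacaatgtcatctgttcccc

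The probes of Itga7 (chr10:128395274-128395333), of Itga10 (chr3:96468377-96468436 for the brighter and chr3:96468383-96468442 for the second) and of Itgb4 (chr11:115869666-115869725), all on the plus strand, hold a hexamer of the poly(A) signal, AATAAA or ATTAAA, which is in capitals below. The probe strand of 4 of the 11 integrin probes held one, as did 13.7% of the 55681 probes of 60 bases, or 18.6% when either strand was counted. The 2 Itga10 probes share 54 bases. The Itga3 probe lies at chr11:94906334-94906393 on the minus strand.
Itga7, 30 bases of the probe: tggttttgtctatttATTAAAaagtatttg
Itga10, brighter probe, 30 bases: aatggtcagaacaAATAAAatccagttatc
Itga10, second probe, 30 bases: atggtcagaacaAATAAAatccagttatca
Itgb4, 30 bases of the probe: tgttctgcacttAATAAAaggttttgctac

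Levels below are log2 intensities from the deposited, normalized table, and changes are differences of group means on the same scale with their standard error (SE), n = 2 arrays per group. A probe was called when its Benjamini-Hochberg adjusted p from limma, taken over all probes, was under 0.05 and its fold change was above 2. Each comparison was fitted on its own 4 arrays. Where a gene had more than 1 probe, the brightest over the 6 arrays stood for it and is called the lead probe. The arrays differed in how many probes the scanner software rated well above background, 16021 and 19996 in the TIA1 KO line against 23569 and 26295 in the WT line and 24796 and 26011 in the TIAR KO line. The median spot intensity before normalization was 458 and 218 on the TIA1 KO arrays and between 120 and 152 on the other arrays. Between the 2 TIA1 KO arrays the correlation across probes was 0.957, against 0.990 in WT and 0.988 in TIAR KO cells.

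In TIAR KO cells the transcripts of 2 collagen-binding subunits, Itga1 and Itga11, rose over WT cells, and no lead probe of the 8 genes was called lower, although that of Itga6 passed the adjusted p at a fold under 2. In TIA1 KO cells no lead probe was called, and of the other 3 probes the second one of Itga6 was called higher in both KO lines. Set against each other, the KO lines differed in the lead probes of Itga1, higher in TIAR KO cells, and of the laminin-binding subunits Itga6 and Itga7, which were lower. With the arrays brought to a common median the Itga6 difference was −0.59 on the log2 scale and was not called. The second Itga6 probe was 0.46 higher in TIAR KO cells and was not called. Of all probes, 3.33% were called higher and 2.36% lower in TIAR KO against WT cells, 1.56% higher and 0.787% lower in TIA1 KO against WT cells, and 1.1% higher and 1.2% lower in TIAR KO against TIA1 KO cells. Among the lead probes of all gene names these shares were, in the same order, 4.24% and 2.79%, 2.07% and 0.914%, and 1.3% and 1.57%. Of the 8 integrins, the called lead probes were 2 of 8 in TIAR KO and 0 of 8 in TIA1 KO cells, and in the direct comparison 1 was higher and 2 were lower. An unadjusted p under 0.05 in limma was reached by 5, 3 and 4 of the 8 lead probes, respectively, beside 19.5%, 26.1% and 21.4% of all probes.

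**Figure D1:**
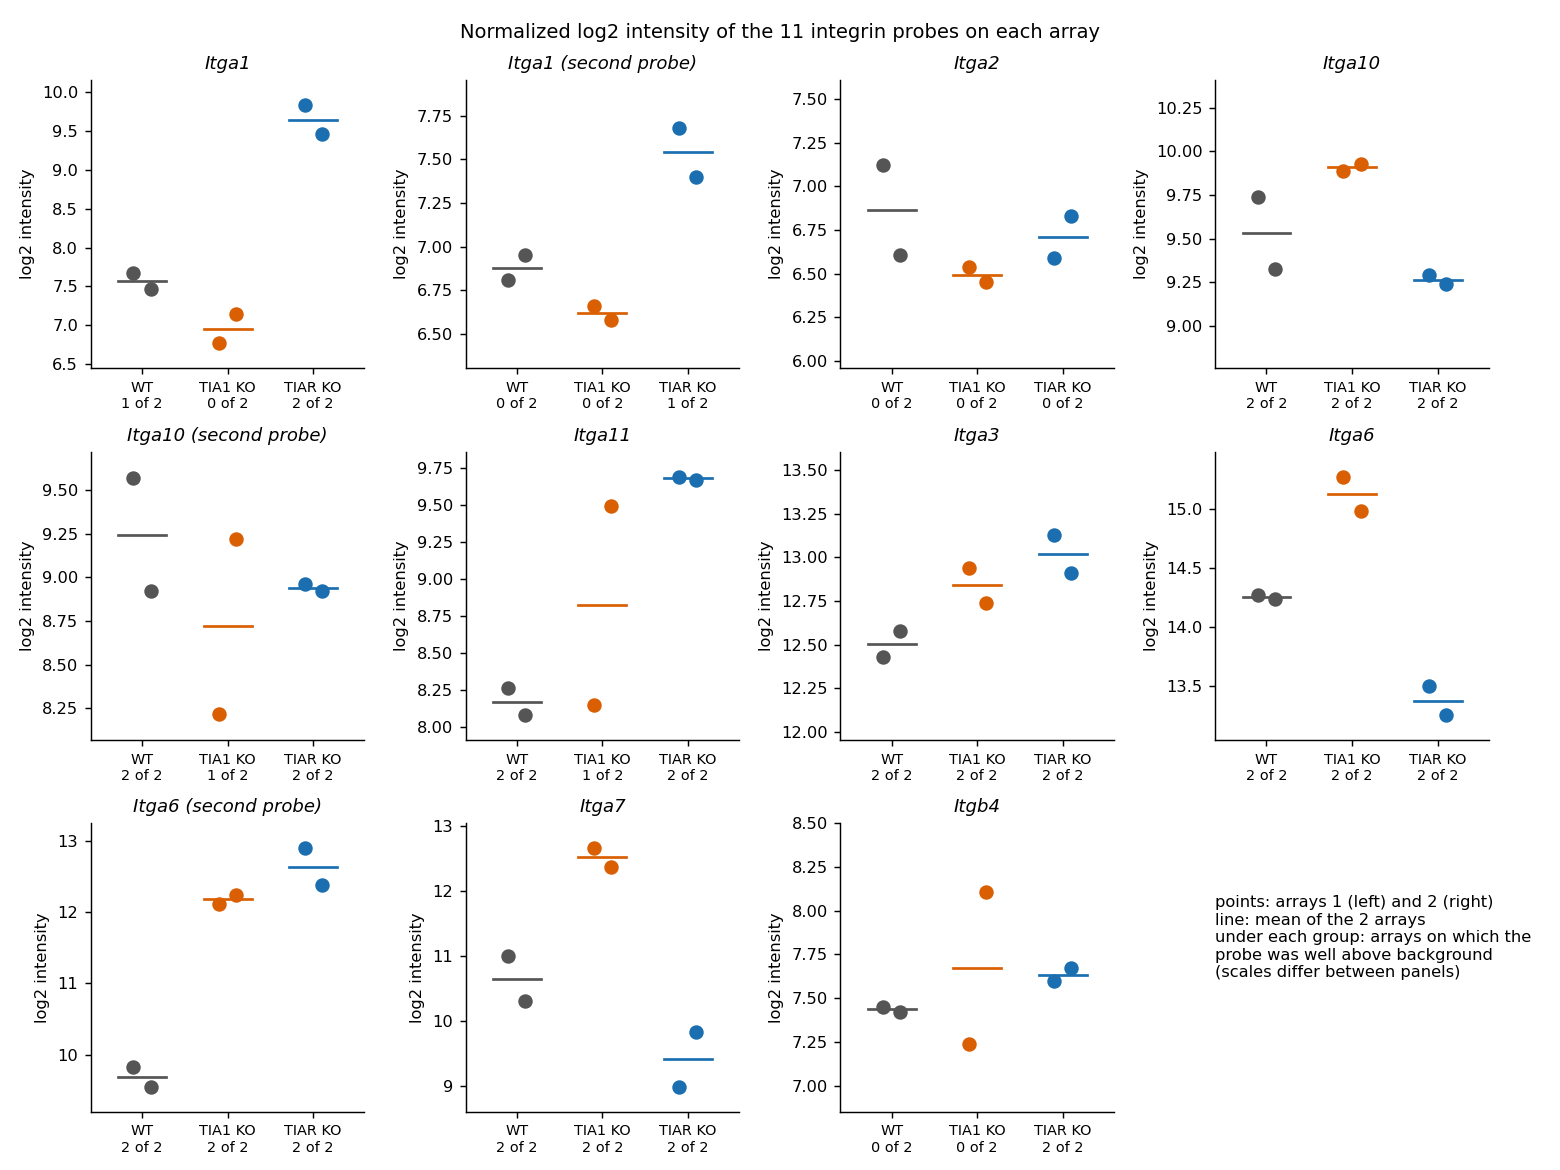
Log2 intensity (y axis, a scale of its own in each panel) of the 11 probes on the 2 arrays of WT, TIA1 KO and TIAR KO cells (x axis, with the number of arrays on which the probe was well above background); points are arrays and lines are means. Itga1 stood at 9.84 and 9.46 in TIAR KO cells against 7.67 and 7.47 in WT cells, and the 3 groups were separate for both Itga6 probes and for Itga7.

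Itga1 encodes the alpha subunit of a receptor that prefers basement membrane collagen. Its lead probe read 7.67 and 7.47 in WT cells, 6.77 and 7.14 in TIA1 KO cells and 9.84 and 9.46 in TIAR KO cells. Both TIAR KO arrays were above all others. The level rose 4.23-fold in TIAR KO over WT cells, by 2.08 ± 0.20 on the log2 scale (SE, limma adjusted p = 0.00328), with 1 of the 2 WT readings well above background. Leaving out any of the 4 arrays kept the change between 1.89 and 2.27 but ended the call, with limma adjusted p between 0.0644 and 0.0725. The scanner software's processed signal, scaled to its 75th percentile, gave a change of 4.16 on the log2 scale. The probe was well above background on both TIAR KO arrays and on no TIA1 KO array, so that its TIA1 KO level is an upper limit and the order of WT and TIA1 KO cells is not known. In TIA1 KO against WT cells it gave −0.61 (95% interval −1.20 to −0.03, limma adjusted p = 0.182), or 0.61 with the processed signal.
Over TIA1 KO cells, TIAR KO cells had at least 4.33-fold more Itga1 signal, where the TIA1 KO arrays were set to the lowest signal rated well above background on them. The measured log2 difference was 2.69 ± 0.24 (SE, limma adjusted p = 0.0307). Without TIAR KO replicate 1 or 2 the adjusted p was 0.392 and 0.373.
The second Itga1 probe, in an upstream part of the transcript, read 6.81 and 6.95 in WT, 6.66 and 6.58 in TIA1 KO and 7.68 and 7.40 in TIAR KO cells. It was well above background on 1 array alone, of TIAR KO cells, so that the other readings have no order. It was not called in TIAR KO against WT cells (limma adjusted p = 0.101), and no fold is given.

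Itga11 encodes the subunit of a fibroblast receptor for fibrillar collagen. Its probe read 8.26 and 8.08 in WT cells and 9.69 and 9.67 in TIAR KO cells. The TIAR KO arrays were both above the WT arrays and nearly equal to each other. The level rose 2.85-fold, by 1.51 ± 0.16 on the log2 scale (SE, limma adjusted p = 0.00489), and the change was 2.61 with the processed signal. The call was lost when any of the 4 arrays was left out (limma adjusted p between 0.0668 and 0.0979, log2 fold change between 1.42 and 1.60) and when all 3 groups shared 1 estimate of the spread (limma adjusted p = 0.184).
In TIA1 KO cells the 2 arrays disagreed, at 8.15 and 9.49, and 1 of them was well above background. One lay within the WT values and one near those of TIAR KO cells, so that WT and TIA1 KO cells overlapped. Its change over WT was 0.65 ± 0.51 (SE, limma adjusted p = 0.428), and it was −0.02 without TIA1 KO replicate 2. The KO lines differed by 0.86 ± 0.50 (SE, limma adjusted p = 0.370), and 1.53 (limma adjusted p = 0.0187) without TIA1 KO replicate 2.

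Itga2 encodes the subunit of another collagen receptor, known from platelets and epithelium as well as fibroblasts. Its probe was not well above background on any of the 6 arrays. It read 7.12 and 6.61 in WT, 6.54 and 6.45 in TIA1 KO and 6.59 and 6.83 in TIAR KO cells. The WT and TIAR KO arrays overlapped. Values near background give only an upper limit to the level, so differences between its groups cannot be read as folds.

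Itga10 encodes a collagen receptor subunit of cartilage. Its lead probe read 9.74 and 9.33 in WT, 9.89 and 9.93 in TIA1 KO and 9.29 and 9.24 in TIAR KO cells, well above background on all 6 arrays. The TIA1 KO arrays were the highest and the TIAR KO arrays the lowest, without overlap. The log2 fold change was 0.38 ± 0.21 in TIA1 KO (SE, limma adjusted p = 0.307), or −0.55 with the arrays brought to a common median in place of quantile scaling, and −0.27 ± 0.20 in TIAR KO cells (SE, limma adjusted p = 0.554). The difference between the KO lines, −0.65 ± 0.16 (SE, limma adjusted p = 0.146), was 0.13 with a common median.
The second Itga10 probe, which shares most of its bases with the lead, read 9.57 and 8.92 in WT, 8.22 and 9.22 in TIA1 KO and 8.96 and 8.92 in TIAR KO cells. All its groups overlapped, and the gap between its TIA1 KO arrays was wider than any difference between group means of either probe.

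Itga3 encodes the subunit of a laminin receptor of broad distribution. Its probe was well above background on all 6 arrays, at 12.43 and 12.58 in WT, 12.94 and 12.74 in TIA1 KO and 13.13 and 12.91 in TIAR KO cells. Both KO lines were above WT cells and overlapped each other. Its change was 0.52 ± 0.17 on the log2 scale in TIAR KO (SE, limma adjusted p = 0.171) and 0.34 ± 0.17 in TIA1 KO cells (SE, limma adjusted p = 0.281). With a common median the TIA1 KO value turned to −1.27 and was called (limma adjusted p = 0.0331), and the TIAR KO value was 0.07. The median change of all probes in TIA1 KO cells was −0.67 under that scaling. With a common median TIAR KO cells were 1.34 higher than TIA1 KO cells, which was called (limma adjusted p = 0.0419).

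Itga6 encodes the laminin receptor subunit shared by the Itgb1 and Itgb4 heterodimers. Its lead probe read 14.27 and 14.24 in WT, 15.27 and 14.98 in TIA1 KO and 13.50 and 13.26 in TIAR KO cells. The TIA1 KO arrays were the highest and the TIAR KO arrays the lowest, and no groups overlapped. In TIAR KO against WT cells the log2 fold change was −0.88 ± 0.17 (SE), 1.83-fold, with an adjusted p of 0.0374 in limma that passed and a fold that did not. With a common median it was −1.32 and was called lower (limma adjusted p = 0.0101). In TIA1 KO cells it was 0.87 ± 0.18 (SE, limma adjusted p = 0.106), and −0.72 with a common median.
The lead probe of Itga6 was 3.35-fold lower in TIAR KO than in TIA1 KO cells, a log2 difference of −1.75 ± 0.20 (SE, limma adjusted p = 0.0482). With a common median the difference was −0.59 and was not called (limma adjusted p = 0.350), and without TIAR KO replicate 1, TIAR KO replicate 2 or TIA1 KO replicate 1 the adjusted p was 0.406, 0.429 and 0.0595.
The second Itga6 probe read 9.83 and 9.55 in WT, 12.11 and 12.24 in TIA1 KO and 12.89 and 12.38 in TIAR KO cells, well above background on all 6 arrays. Both KO lines stood far above WT cells. It rose 7.70-fold in TIAR KO (log2 fold change 2.94 ± 0.23 SE, limma adjusted p = 0.00162) and 5.60-fold in TIA1 KO cells (2.48 ± 0.18 SE, limma adjusted p = 0.0227). Between the KO lines it was 0.46 higher in TIAR KO cells on the log2 scale, which was not called (limma adjusted p = 0.341). With a common median that difference was 1.61 and was called (limma adjusted p = 0.0113).
In TIAR KO cells the 95% intervals of the 2 Itga6 probes lay on opposite sides of 0, from −1.29 to −0.46 for the lead probe and from 2.38 to 3.51 for the second. Neither the difference between the probes nor which transcripts each one binds was tested. The calls of the second probe were lost in TIA1 KO cells without either WT array or TIA1 KO replicate 1 (limma adjusted p 0.415, 0.417 and 0.0555), with the processed signal (0.0587) and with the replicate number as a block (0.145), and in TIAR KO cells without WT replicate 2 or either TIAR KO array (0.0529, 0.0589 and 0.0550).

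Itga7 encodes the laminin receptor subunit that is abundant in muscle. Its probe read 11.00 and 10.30 in WT, 12.65 and 12.37 in TIA1 KO and 8.99 and 9.83 in TIAR KO cells, well above background on all 6 arrays. The groups did not overlap, with TIA1 KO cells highest and TIAR KO cells lowest. Its change was 1.86 ± 0.31 on the log2 scale in TIA1 KO (SE, limma adjusted p = 0.0843) and −1.24 ± 0.36 in TIAR KO cells (SE, limma adjusted p = 0.119), neither of them called. The TIA1 KO value passed (limma adjusted p between 0.0465 and 0.0495) when only probes well above background were fitted, when all 3 groups shared 1 spread or with an intensity trend, and was 0.56 with a common median.
Itga7 was 8.57-fold lower in TIAR KO than in TIA1 KO cells, a log2 difference of −3.10 ± 0.35 (SE, limma adjusted p = 0.0457). It was −2.14 with a common median (limma adjusted p = 0.000347). Without TIAR KO replicate 1, TIAR KO replicate 2 or TIA1 KO replicate 1 the adjusted p was 0.390, 0.355 and 0.0631.

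Itgb4 encodes the hemidesmosomal beta subunit. Its probe read 7.45 and 7.42 in WT, 7.24 and 8.11 in TIA1 KO and 7.60 and 7.67 in TIAR KO cells, and was well above background on the TIAR KO arrays alone. The 2 TIA1 KO arrays enclosed all other values. It was not called in TIAR KO against WT cells (limma adjusted p = 0.584).

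**Figure D2:**
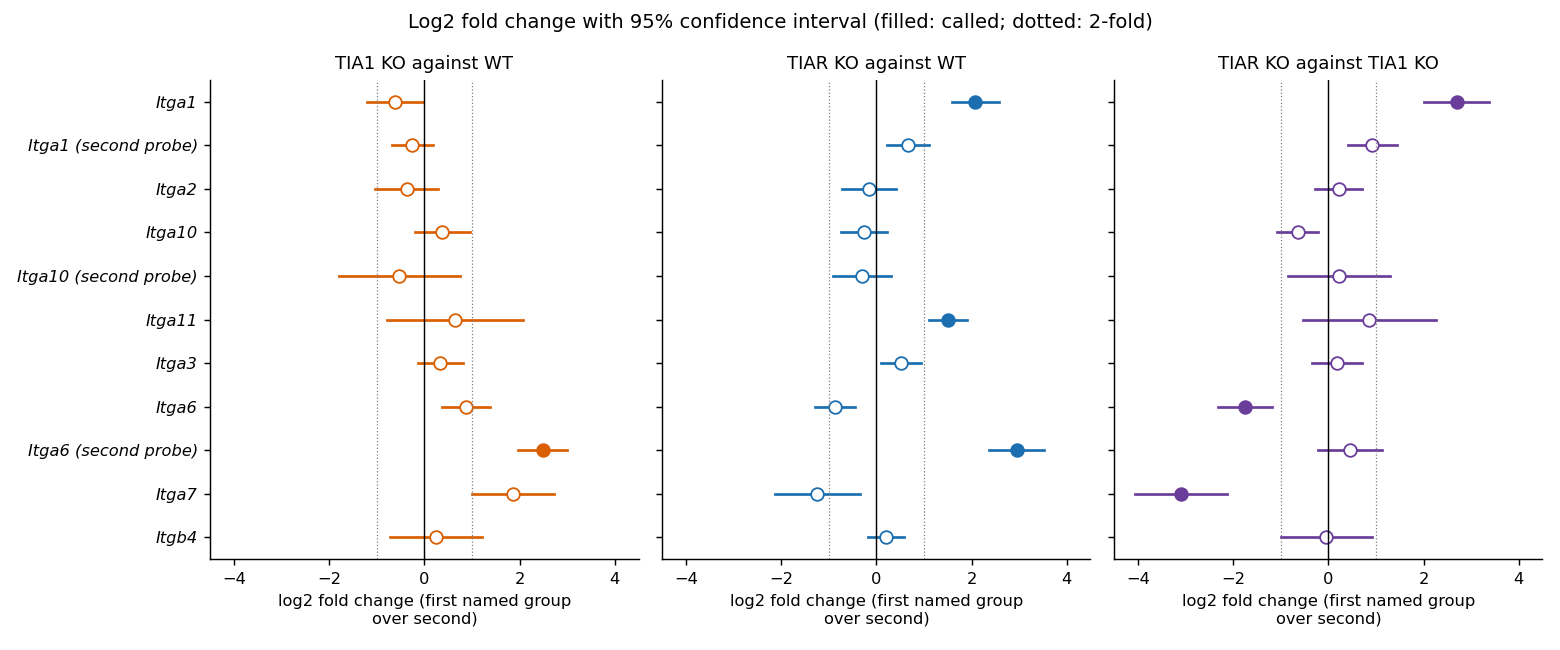
Log2 fold change (x axis, the first named group over the second) of the 11 probes (rows) in the 3 comparisons; bars are 95% confidence intervals from limma, filled points were called and dotted lines mark a 2-fold change. The lead probe of Itga6 lay at −0.88 and its second probe at 2.94 in TIAR KO against WT cells.

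Ordered by mean level within each probe, TIAR KO was the highest group for the lead probe of Itga1, with the TIA1 KO arrays and 1 WT array near background. TIA1 KO was the highest and TIAR KO the lowest for the lead probes of Itga6, Itga7 and Itga10. No pair of Itga10 groups passed the test, and its second probe had TIA1 KO lowest by mean, with all groups overlapping. A common median put the lead probes of Itga6 and Itga10 lower in TIA1 KO than in WT cells. It also put that of Itga10 0.13 higher in TIAR KO than in TIA1 KO cells. For Itga11 and the second Itga6 probe the order was TIAR KO, TIA1 KO, WT, and in neither did the neighbouring KO groups pass the test of their difference (limma adjusted p = 0.370 and 0.341), although with a common median the second Itga6 probe was 1.61 higher in TIAR KO than in TIA1 KO cells (limma adjusted p = 0.0113). For Itga3 those groups overlapped in the deposited values, and for Itga2 and Itgb4 no pair of groups passed the test. The median log2 fold change of the 8 lead probes was 0.02 in TIAR KO cells, beside −0.02 for all probes, and 0.36 in TIA1 KO cells, beside −0.12. For TIAR KO against TIA1 KO cells it was 0.07, beside 0.10.

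The scaling of the arrays moved the TIA1 KO values most. Over all probes the TIA1 KO against WT values had a median of −0.12 on the log2 scale in the deposited table, −0.67 with a common median and 1.98 with the software's processed signal. Taken relative to these medians, Itga7 was 1.98 higher, 1.23 higher and −0.17 from the median. In the TIAR KO against WT comparison the medians were −0.02, −0.02 and −0.04, and there no lead probe other than that of Itga2 changed its sign.

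**Figure D3:**
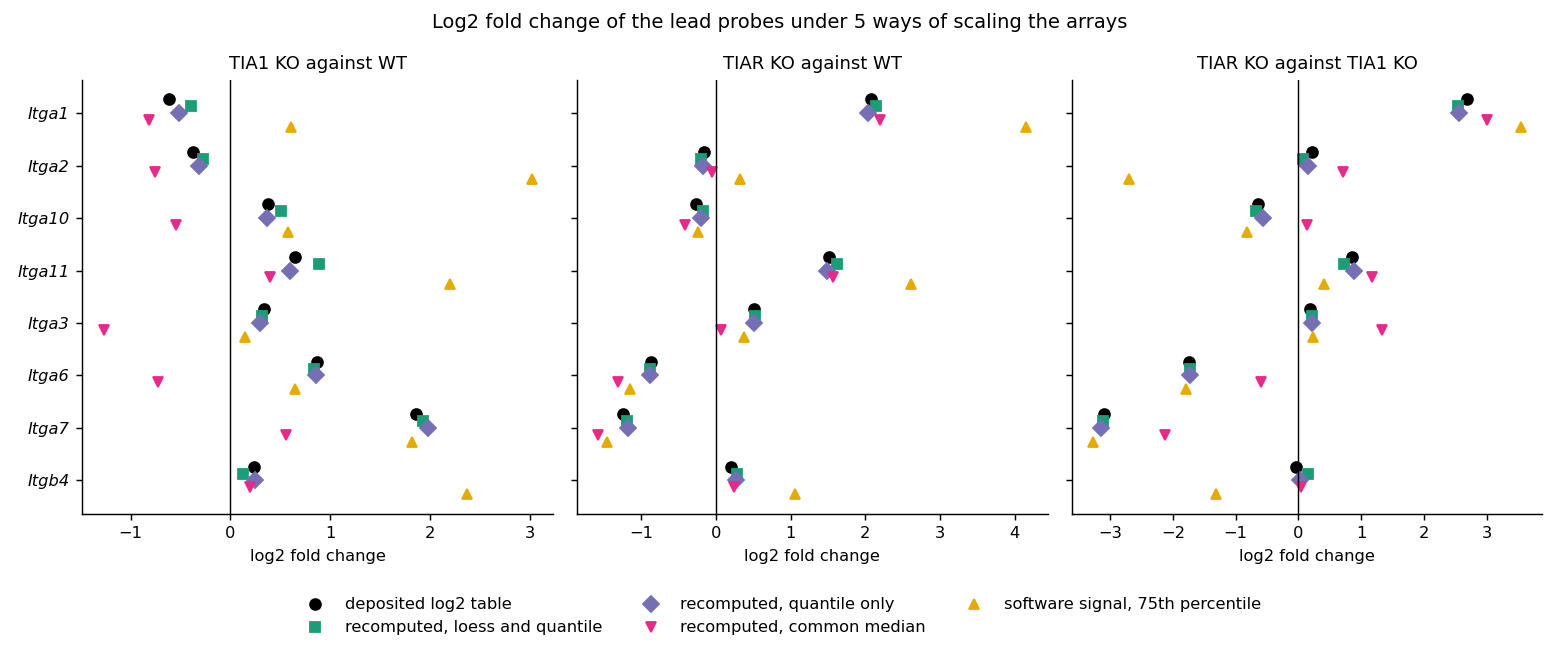
Log2 fold change (x axis) of the 8 lead probes (rows) in the 3 comparisons under the deposited log2 table and 4 other scalings, each with its own symbol. In TIA1 KO against WT cells the points of Itga1, Itga2, Itga3, Itga6 and Itga10 fell on both sides of 0, down to −1.27 for Itga3 with a common median, whereas those of Itga1 in TIAR KO against WT cells all lay above 0.

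Itgb1, the common partner of the alpha subunits, was well above background everywhere, at 14.02 and 14.40 in WT, 15.08 and 15.03 in TIA1 KO and 14.62 and 14.52 in TIAR KO cells. Both KO lines were above WT cells in these values, with no overlap, but not with a common median, where the changes were −0.68 in TIA1 KO and −0.06 in TIAR KO cells. The log2 fold change was 0.84 ± 0.20 in TIA1 KO (SE, limma adjusted p = 0.124) and 0.36 ± 0.19 in TIAR KO cells (SE, limma adjusted p = 0.400).
Of the 19 integrin subunits outside the 8 genes, Itgb1 among them, 2 rose in TIA1 KO cells and 3 rose and 1 fell in TIAR KO cells. Itgb3, the beta subunit of the vitronectin receptor, rose by 4.89 ± 0.15 on the log2 scale (SE, limma adjusted p = 0.00746) in TIA1 KO cells and in TIAR KO cells by 2.86 ± 0.20 (SE, limma adjusted p = 0.00105). Itgb5, another vitronectin-binding beta subunit, rose in both as well, by 2.91 and 1.79 (limma adjusted p = 0.0124 and 0.0030). Itga9, a tenascin receptor subunit, was not well above background in WT cells and rose at least 3.58-fold in TIAR KO cells, where it read 8.46 and 8.75, a call lost with all 3 groups in 1 fit (limma adjusted p = 0.337). The TIA1 KO arrays lay on either side of these values, at 7.52 and 10.02. Itgb7, known from leukocytes, fell in TIAR KO cells, with a log2 change of −3.17 (limma adjusted p = 0.000431). Between the KO lines Itgb3, Itgb7 and Itgam, a leukocyte alpha subunit, were called lower in TIAR KO cells. With a common median the differences of Itgb3 and Itgam were −0.90 and −0.54 and were not called (limma adjusted p = 0.197 and 0.392), and with the processed signal both had an adjusted p of 0.0695 in limma.

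Collagens, the ligands of 4 of the 8 integrins, changed in both KO lines. Of 8 collagen chains, 5 rose in TIA1 KO cells and 5 in TIAR KO cells, and none fell. Col4a1, a chain of basement membrane collagen, read 7.86 and 7.79 in WT, 14.84 and 14.88 in TIA1 KO and 14.27 and 14.22 in TIAR KO cells. Both KO lines were far above WT cells and lay close together. Its log2 fold change was 7.04 ± 0.14 in TIA1 KO (SE, limma adjusted p = 0.00746) and 6.42 ± 0.16 in TIAR KO cells (SE, limma adjusted p = 0.000135).
Col4a2 and Col3a1, a fibrillar chain, followed with 6.17 and 6.03 in TIA1 KO and 4.74 and 6.26 in TIAR KO cells. Col1a1 rose in both lines, by 2.03 (0.51 and not called with a common median, limma adjusted p = 0.397) and 2.36, Col1a2 rose by 2.27 in TIAR KO cells, and Col2a1, the cartilage chain, was not well above background in WT cells, rose at least 31.6-fold in TIA1 KO cells and was 4.21 lower on the log2 scale in TIAR KO than in TIA1 KO cells. The median log2 fold change of the chains was 3.74 in TIA1 KO and 2.31 in TIAR KO cells. With 1 array left out in turn, between 0 and 7 of the chains were called in TIA1 KO and between 0 and 3 in TIAR KO cells.

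Of 11 laminin chains, 1 rose and 1 fell in TIA1 KO cells, and 3 rose in TIAR KO cells. Lama2, the alpha chain of the laminin of muscle and nerve basement membranes, read 7.95 and 8.04 in WT, 11.57 and 11.52 in TIA1 KO and 7.80 and 7.80 in TIAR KO cells. Only the TIA1 KO arrays were high, whereas WT and TIAR KO cells lay close together. The log2 fold change in TIA1 KO cells was 3.55 ± 0.15 (SE, limma adjusted p = 0.00969). Lamb3, a chain of the epithelial laminin that hemidesmosomes bind, was at 10.18 on both WT arrays and not well above background in TIA1 KO cells, at least 7.26-fold lower (limma adjusted p = 0.00969). In TIAR KO cells the chains that rose were Lamb2 and Lamc1, with log2 fold changes of 1.79 and 1.35, and Lama4, at least 2.27-fold higher than in WT cells, where it was not well above background. The Lamc1 call was lost with the processed signal and with a common median. In the direct comparison Lama2 was called lower and Lamb3 higher in TIAR KO cells, Lamb3 not with the processed signal (limma adjusted p = 0.0695). The median of the chains was −0.04 in TIA1 KO and 0.41 in TIAR KO cells.

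Among 6 other receptors for collagens and laminins, Ddr1, a receptor tyrosine kinase for collagen, and Sdc4, a syndecan, rose in TIAR KO cells, by 1.82 and 1.10 (limma adjusted p = 0.00406 and 0.0454). The Sdc4 call held in 4 of the 9 alternatives that kept all arrays, with a change of 0.73 on the log2 scale under a common median. Leaving out any array of the comparison ended it. The same was true of other calls in TIAR KO against WT cells, among them Ddr1, Itgb5, Lamb2, Lama4 and Col1a2. Ddr2, another of the 6, had 1 usable spot in WT and 1 in TIAR KO cells, so that its comparison there had no spread of its own. In TIA1 KO cells Sdc1, another syndecan, was called higher, by 1.31 (−0.23 with a common median), a call that held in 5 of the 9 alternatives with all arrays, and Bcam, a laminin receptor, was not well above background and was called lower, at least 1.96-fold (limma adjusted p = 0.0418, or 0.107 with an intensity trend). Ddr1 and Bcam were called higher in TIAR KO than in TIA1 KO cells, but not with the processed signal (limma adjusted p = 0.0695 and 0.0916), nor was Bcam with an intensity trend (0.0880). Of 6 tetraspanins, membrane partners of laminin-binding integrins, Cd81 rose in both lines, in TIA1 KO cells by 1.56 (0.03 with a common median) and in TIAR KO cells by 1.63, and no other was called. With the processed signal Cd81 was called in neither line, at 1.43 and 1.25 (limma adjusted p = 0.0750 and 0.0916).
Of 23 proteins that activate integrins or link them to actin, 1 rose in TIA1 KO and 3 in TIAR KO cells, and none fell. They were Tns1, which binds integrin tails and actin, at 2.52 (1.09 and not called with a common median, limma adjusted p = 0.0754) and 3.38, and in TIAR KO cells also the kinase Ptk2b at 1.33, a call lost with all 3 groups in 1 fit (limma adjusted p = 0.116), and the integrin activator Fermt2 at 1.27. The Fermt2 call held in 5 of the 9 alternatives that kept all arrays and in none that left one out. None of 5 hemidesmosome partners of Itgb4 was called in any comparison. Leaving out either WT array, the processed signal and the replicate number as a block each left no called probe of any kind in the TIA1 KO comparison, and leaving out TIAR KO replicate 1 left none in either comparison of TIAR KO cells.

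**Figure D4:**
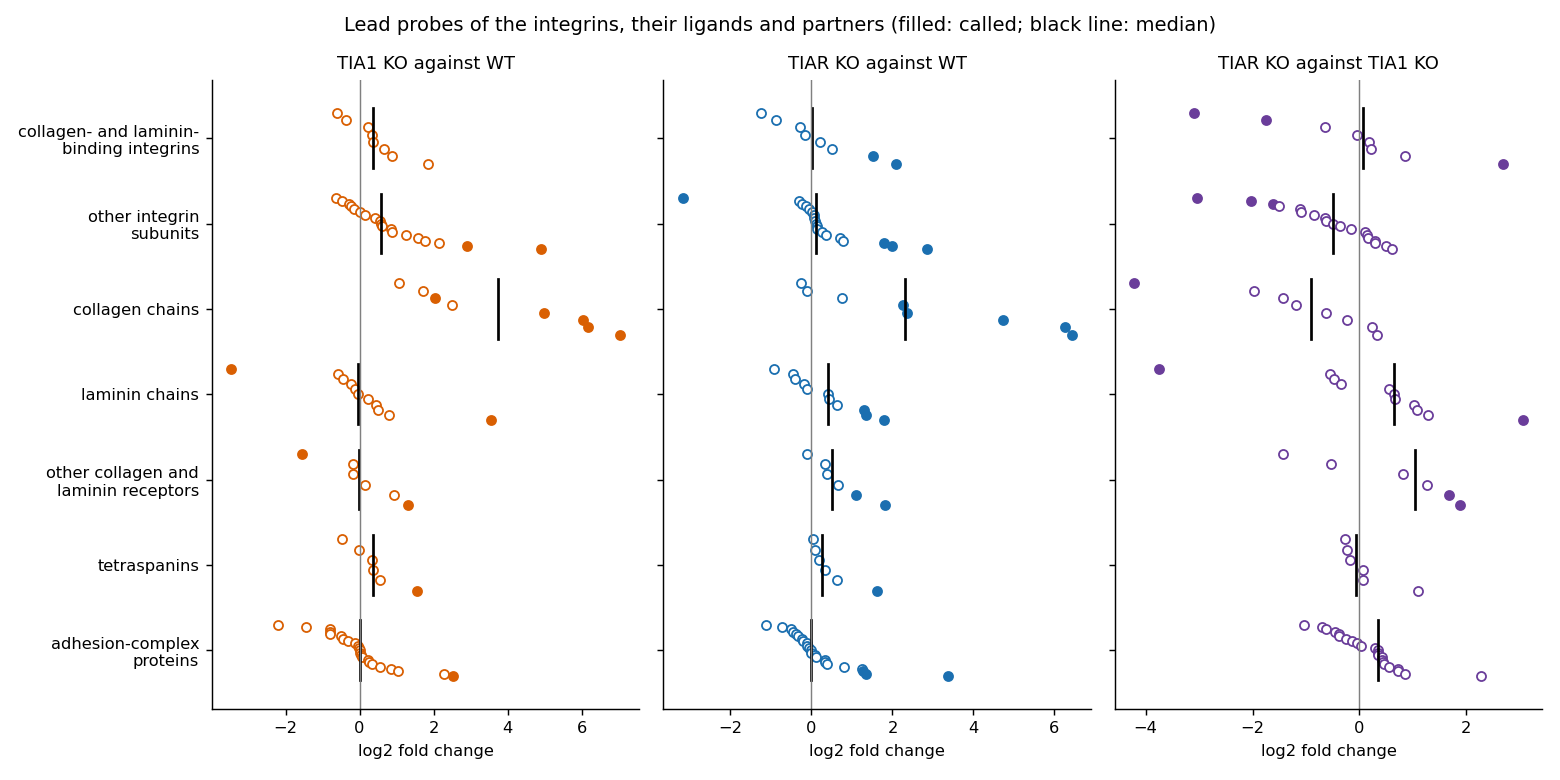
Log2 fold change (x axis) of the lead probe of each gene (points) in 7 lists (rows) for the 3 comparisons; filled points were called and black lines are list medians. The collagen chains reached 7.04 in TIA1 KO and 6.42 in TIAR KO cells, while the 8 integrins lay between −1.24 and 2.08 in TIAR KO against WT cells.

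The labels call all 3 lines fibroblasts, and Vim, a mesenchymal filament protein, and S100a4 were bright on every array, Vim between 17.36 and 17.95. Of 11 fibroblast markers, 4 rose in TIA1 KO and 8 in TIAR KO cells. Thy1 and Dcn, both used to define fibroblasts, were near background in WT (Thy1 at 7.03 and 7.45, Dcn at 7.07 and 7.27), and Thy1 was near background in TIA1 KO cells too (6.87 and 7.18). In TIAR KO cells they read 14.83 and 14.79, and 15.70 and 15.85. The summed linear intensity of the 11 markers was 532752 and 571966 in WT, 1134346 and 1097462 in TIA1 KO and 1285639 and 1315073 in TIAR KO cells. Averaged over the 6 arrays the probe of S100a4 was the brightest, but that of Col1a2 was brighter on both TIA1 KO arrays and TIAR KO replicate 1, and probes differ in how brightly they read the same amount of RNA.
Mesothelial markers differed between the lines as well. Of 6, Upk3b, Upk1b, Wt1 and Lrrn4 rose and Msln fell in TIAR KO cells, and none was called in TIA1 KO cells. Upk3b was near background at 7.21 and 6.54 in WT cells and read 13.90 and 14.16 in TIAR KO cells. Msln, whose probe was the brightest on every array, was well above background in every group, and the summed intensity of the 6 was 98246 and 67494 in WT, 271271 and 233126 in TIA1 KO and 55964 and 53343 in TIAR KO cells.
Of 9 epithelial markers, Krt18, Cdh1 and Krt8 rose in TIAR KO cells, Krt8 not with all 3 groups in 1 fit (limma adjusted p = 0.0877), and Krt5 was near background on all 6 arrays. The summed epithelial intensity was 1715 and 1852 in WT, 1493 and 2145 in TIA1 KO and 3149 and 3254 in TIAR KO cells, where the probe of Krt18 was the brightest, whereas that of Krt8 was so as averaged over the 6 arrays.

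For Itga7, the muscle lists are the ones to set beside it. Of 8 myogenic markers, Des alone was called, higher in TIAR KO cells by 1.15 (limma adjusted p = 0.0126), where Itga7 was lowest. No other marker of this list, Myod1, Myog and Cdh15 among them, was well above background on any array. The summed myogenic intensity was 921 and 988 in WT, 1079 and 1096 in TIA1 KO and 1208 and 1250 in TIAR KO cells. These sums are mostly readings near background and give no order of the groups. Des itself was well above background on both TIAR KO arrays, on 1 WT array and on no TIA1 KO array. Of 7 smooth muscle and pericyte markers, 3 rose in TIA1 KO cells, and 3 rose and 1 fell in TIAR KO cells. Cspg4, the pericyte proteoglycan, was highest in TIA1 KO cells (13.27 and 13.14), lower in WT (10.44 and 10.71) and lowest in TIAR KO cells (7.41 and 7.31), as was Itga7. The rest of the list did not share this order. Cnn1 and Tagln were highest in TIAR KO cells, Cnn1 at 13.21 and 13.24 there against 10.54 and 10.36 in TIA1 KO cells. Mcam was lowest in TIA1 KO cells (13.71 and 13.75), and Myh11 and Rgs5 were not well above background on any array. Acta2, whose probe was the brightest in both KO lines but not in WT cells, rose in both KO lines (log2 4.74 in TIA1 KO, 5.40 in TIAR KO cells), and the summed intensity was 48216 and 60710 in WT, 311727 and 336969 in TIA1 KO and 534673 and 469941 in TIAR KO cells. The part of any of these cell types in the integrin values was not tested, and fewer cells of a type cannot be told apart from less RNA per cell.
Of 6 chondrocyte markers Col2a1 alone was called, higher in TIA1 KO cells than in WT and TIAR KO cells. Sox9 went the other way without a call, at 9.20 and 9.12 in WT and 7.35 and 8.425 in TIA1 KO cells. Acan, Comp and Matn1 were not well above background on any TIA1 KO array. Of 8 leukocyte markers Cd14 alone was called against WT cells, lower in TIAR KO cells. Between the KO lines Cd68 was called higher in TIAR KO cells (log2 difference 1.65) and Cd14 lower (−1.51). With the processed signal neither difference was called (limma adjusted p = 0.0695 for both), and with a common median that of Cd14 was −0.47 and not called. No endothelial (of 6) or Schwann cell marker (of 5) was called in any comparison.

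The targeted genes were read as a check of the labels. The lead probe of Tia1 read 10.57 and 8.71 in WT, 7.52 and 8.38 in TIA1 KO and 9.75 and 9.77 in TIAR KO cells, so that the lowest 2 arrays were those labelled TIA1 KO (log2 fold change −1.69 ± 0.75 SE, limma adjusted p = 0.247). The lead probe of Tial1, the gene of TIAR, read 13.29 in WT replicate 2, with the other WT spot marked as an outlier, 14.20 and 13.77 in TIA1 KO and 9.80 and 11.78 in TIAR KO cells (−2.50 ± 0.82 SE against WT replicate 2 alone, limma adjusted p = 0.188, where the lone WT array is assumed to vary like the TIAR KO arrays). Both were lowest in the line named for them. The Tia1 change did not pass the test in the deposited values, and neither did that of Tial1. By other methods, western blot and RT-PCR, the paper reports that each KO line lacked the mRNA and protein of its targeted gene. With a common median the Tia1 change in TIA1 KO against WT cells was −2.14, which was called (limma adjusted p = 0.000162). Under that scaling 13925 of the 55681 probes were called lower and 1876 higher there, and the median change of all probes was −0.67. Over all alternatives this Tia1 change lay between −2.62 and −0.76. TIAR KO cells, with 2 arrays on each side, were at −3.19 ± 0.74 (SE, limma adjusted p = 0.136) against TIA1 KO cells for Tial1, and at −2.17 with a common median, which was called (limma adjusted p = 0.000265). Whether these probes lie in the deleted parts is not given in the sources used here.

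The genes nearest in pattern are given for each integrin whose lead probe was well above background throughout more than 1 group. They were sought among 18300 others, by the root mean square (RMS) difference of centred log2 values over the 6 arrays. For Itga11 they were Pcdhb18 (RMS 0.119) and Ppm1h (0.124), and for Itga10 Lmnb1 (0.0693) and Faim (0.0769). Among the laminin-binding subunits, Itga3 was nearest to Nubp2 (0.0407) and Tmem136 (0.0431), and Itga6 to Frrs1 (0.0593) and Mmd (0.109). Itga7 had no gene as close, the nearest being a lincRNA of chromosome 12 (0.292) and Sema7a (0.305). Itga1 and Itgb4 were well above background throughout TIAR KO cells alone, so that no nearest genes are given for them.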

How the data were processed

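The log2 values are the authors' deposited table, which their methods describe as background corrected (normexp, offset 50), log2 transformed, loess normalized and quantile scaled. The authors also deposited the intensity of each spot as Agilent Feature Extraction 10.7.3.1 measured it, on a linear scale and not normalized, and these files gave probe names, mm9 positions, sequences, outlier flags and background ratings. Columns of the table were set against values recomputed from the same array (r between 0.9972 and 0.9995), which settled scale and direction. Median log2 per array was between 7.23 and 7.28.

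Control and outlier spots were left out and spots of one probe averaged. Limma 3.58.1 (lmFit, eBayes; data.table version 1.17.8, R 4.3.3) was fitted per comparison on its 4 arrays without covariates over 55681 probes, and tested on simulated data. A probe counted as well above background when at least 50% of its spots were so rated. Lower limits of folds replaced the dim group's value on each array by the dimmest log2 reading that the software still rated well above background there, unless the probe itself read higher. Figures used matplotlib 3.10.9 and Python 3.11.15.

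Named were all member genes and probes, Itgb1, Tia1, Tial1, up to 4 called genes per list (those with the largest changes) and genes accounting for small counts, and the 2 nearest genes by pattern. Vim, S100a4, Krt5, Myod1, Myog, Cdh15, Sox9, Acan, Comp, Matn1, Mcam, Myh11 and Rgs5 were named after their values were seen. Members and lists were chosen with earlier results of these data known. Of 10 integrin probes with a RefSeq accession, 8 were found in RefSeq's GRCm38.p6 table, all under the same symbol.

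Alternatives were recomputed values, the software's processed signal scaled to the 75th percentile, quantile normalization without loess, a common median, a filter on dim probes, 1 probe per gene, all 3 groups in 1 fit, an intensity trend, the replicate number as a block and leaving out each array. With 2 arrays a group, precision is limited by their number.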

Additional observations from a re-analysis of the deposited data

How the results depend on the processing

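Of 412 values of single integrin probes under an alternative, 351 kept direction and side of the threshold, 32 lost the call, 8 gained it in the same direction and 21 changed sign, 1 of them to a call. In TIAR KO against WT cells Itga1 and Itga11 stayed called under every alternative that kept all 4 arrays, except that Itga11 was lost, leaving 1, with all 3 groups in 1 fit, and a common median added Itga6, lower. Without 1 array the number was between 0 and 0, where one group has 1 array and is assumed to vary like the other. All probes called there, 3168, became 2036 with all 3 groups in 1 fit and between 0 and 922 without 1 array. A common median gave 1424 higher and 2715 lower probes in place of 1853 and 1315.
In TIA1 KO against WT cells no lead probe of an integrin was called, and 1 was with a common median (Itga3, lower), with only probes above background, with all 3 groups in 1 fit or with an intensity trend (Itga7, higher, 1 each); without 1 array the number was between 0 and 1. The second Itga6 probe, called higher, lost its call with the processed signal (limma adjusted p = 0.0587) and the replicate block (0.145). All probes called, 1309 (871 higher), became 1969 when recomputed, 0 with the processed signal (27765 at an unadjusted p under 0.05 in limma), 15801 with a common median (1876 higher), 2271 with only probes above background, 3597 with all 3 groups in 1 fit, and between 0 and 11219 without 1 array.
Between the KO lines the 3 called integrins became 0 with the processed signal, where the limma adjusted p of Itga1, Itga6 and Itga7 was 0.0695, 0.0695 and 0.0574, and between 0 and 4 without 1 array. With a common median they were again 3, with Itga3 (1.34, higher) in place of Itga6, and the second Itga6 probe was called higher too (1.61). All probes called, 1278 (610 higher), became 8307 with a common median (7242 higher), 1509 with the processed signal (125 higher), 2338 with only probes above background, 3304 with all 3 groups in 1 fit, and between 0 and 11392 without 1 array.
The labels number the arrays of each group. The deviations of same-numbered arrays from their group means correlated at 0.0746 in TIA1 KO with WT, 0.0328 in TIAR KO with WT and −0.0566 in TIAR KO with TIA1 KO cells over all probes, and at 0.197, 0.0226 and −0.0305 over 13823 probes that every array rated above background. With 2 pairs and no shared source given in the labels, the number was not taken as a pairing. The replicate block gave 0, 2 and 0 called integrins in TIA1 KO against WT, TIAR KO against WT and TIAR KO against TIA1 KO cells, and 0, 2349 and 0 called probes.
Of the values that changed sign only that of Itga3 in TIA1 KO cells was called. In TIA1 KO against WT cells, the processed signal gave 0.61 for Itga1, 2.999 for its second probe, 3.02 for Itga2 and 0.50 for the second Itga10 probe. A common median gave −1.27 for Itga3, −0.72 for Itga6 and −0.55 for Itga10. Without 1 TIA1 KO array, Itga11 was between −0.02 (replicate 2 left out) and 1.32, and Itgb4 between −0.20 (replicate 2 left out) and 0.68. In TIAR KO against WT cells Itga2 was at 0.32 with the processed signal and between −0.41 and 0.10 without 1 WT array, and the second Itga10 probe between −0.63 and 0.02, the last of each without WT replicate 1. Between the KO lines the processed signal gave −0.50 for the second Itga1 probe, −2.70 for Itga2 and −0.56 for the second Itga10 probe, which was between −0.28 and 0.72 without 1 TIA1 KO array. A common median gave 0.13 for Itga10 and 0.047 for Itgb4. Itgb4 was also at 0.15 when recomputed, at 0.026 without loess and between −0.47 and 0.40 without 1 TIA1 KO array. Except for settings that fit fewer arrays or probes, the cause was not tested. The values for Itga2 and the second Itga1 probe, and those of Itga1 in TIA1 KO cells, are differences among readings near background and not folds. Probes near background (Itga2, and Itga1 and Itgb4 in most groups) have only upper limits there.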
